A study of Rattus norvegicus with 6 samples.

Results

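Angiopoietins and platelet-derived growth factors (PDGFs) are secreted ligands that act between the muscle cells of the heart and its vessels. The genes described here are the angiopoietin ligands Angpt1 and Angpt2 with the receptors Tek (also called TIE2) and Tie1, and the PDGF ligands Pdgfa, Pdgfb, Pdgfc and Pdgfd with the receptors Pdgfra and Pdgfrb. They were chosen by name: every probe set that the platform annotation pairs with exactly 1 symbol, that symbol being one of these, was kept. This gave 10 probe sets, 1 for each of the 10 genes (6 ligands and 4 receptors), out of 15310 probe sets with exactly 1 symbol and 29215 in all.

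The samples were primary ventricular cardiomyocytes of 2-day-old Sprague-Dawley rats, enriched by pre-plating away fibroblasts and kept in serum-free medium. They were treated for 24 h with recombinant human cardiotrophin 1 (hCT1, 0.5 nM, the dose of the methods), a cytokine that signals through the gp130 receptor chain, or with control serum-free medium, with 3 samples per group and 1 Affymetrix whole-transcript rat array per sample. All values are log2 values made by the authors with RMA, so 1 unit is a change of 2-fold. The sample records name a hypertrophic agonist in the growth medium of all 6 samples, controls included, while their treatment field and the methods name control serum-free medium, so the controls are taken here as unstimulated. Nothing states that the 3 samples of a group were separate cultures, so p-values reflect only how far these samples differ among themselves, possibly for technical reasons.

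In the angiopoietin system, angiopoietin 1 is the steady agonist of TEK, a receptor kinase of endothelial cells, and keeps vessels quiet. Angiopoietin 2 binds the same receptor but activates it weakly or blocks it, depending on context, and is made mainly by endothelial cells whose vessels are being remodeled. TIE1 binds neither ligand firmly and modulates TEK. In the PDGF system, 4 ligand chains pair into dimers that bring together the alpha and beta receptors. PDGF-B released by endothelium draws in pericytes, the mural cells that carry the beta receptor, while the alpha receptor is typical of cardiac fibroblasts and their precursors.

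Of the 10 genes, Angpt2 was higher and Pdgfb was lower with hCT1, and the other 8 did not pass limma's test at a Benjamini-Hochberg adjusted p under 0.05. Angpt2 rose 1.30-fold, and Pdgfb fell to 77.3% of its control level. The 1 higher gene of 10 stands against 4.98% of all tested probe sets called higher, and the 1 lower gene against 9.84% called lower; 14.8% were called in either direction. A count of 2 in 10 is therefore near the background. Over the 10 genes the log2 fold change had a median of 0.06, against 0.00 over all tested probe sets, and their median absolute change was 0.10 in both sets. The split of all calls, 762 higher and 1506 lower, depended on the scaling: it was 2304 and 765 once each array was centred on its median, and 917 and 1148 after another round of quantile normalization.

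**Figure D1:**
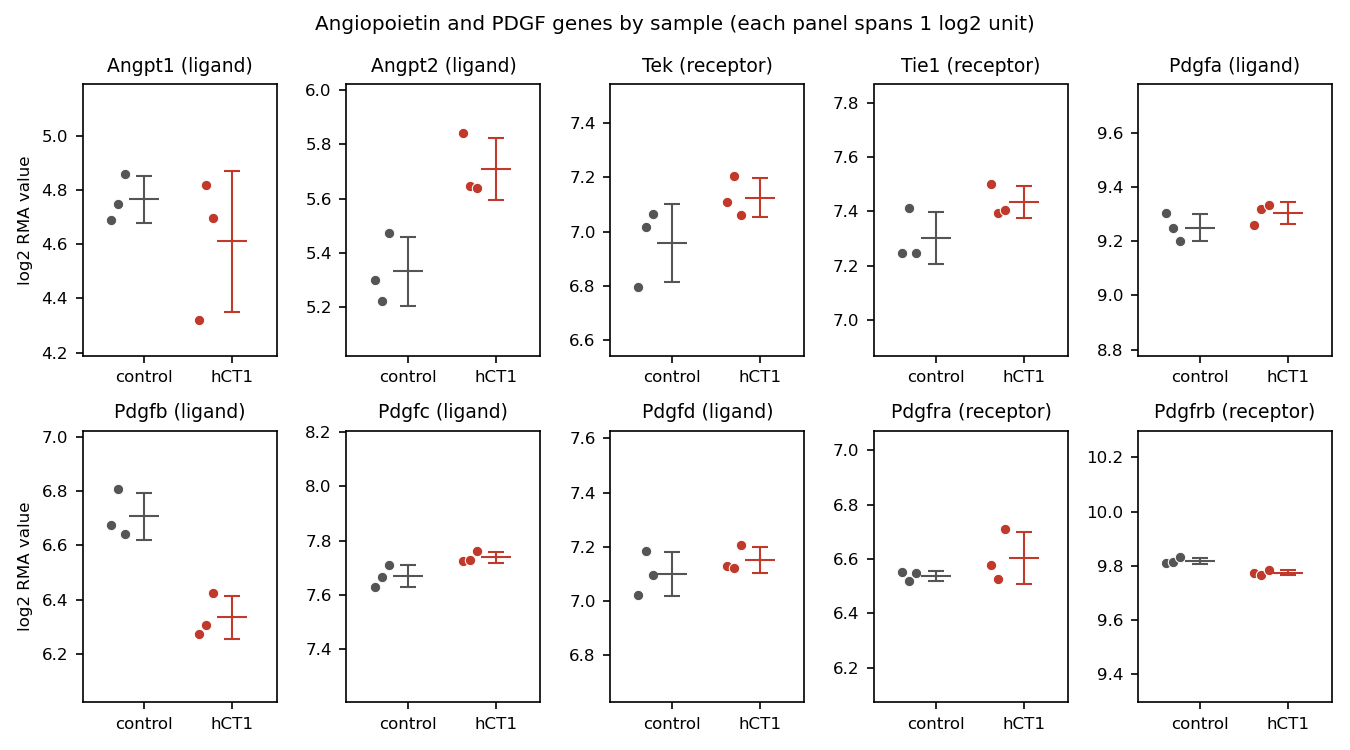
The log2 RMA value of each gene is shown, with controls in grey and hCT1 in red (3 samples each); points are samples, horizontal lines mark means and bars the SD, and every panel spans 1 log2 unit. Only Angpt2 and Pdgfb passed the test; the groups lie apart by 0.17 for Angpt2 and by 0.22 for Pdgfb, and by 0.02 to 0.03 for Pdgfc and Pdgfrb.

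Angpt2 (probe set 10789291) measured 5.30, 5.22 and 5.47 in the 3 control samples and 5.84, 5.65 and 5.64 in the 3 hCT1-treated samples. Every hCT1-treated sample lay above every control sample, with hCT1 replicate 1 the highest. The means were 5.33 ± 0.13 and 5.71 ± 0.11 (SD, n = 3 each). Their difference on the log2 scale was 0.38 (SE 0.08, 95% interval 0.19 to 0.56, adjusted p = 0.0166 from limma). The size of this change lay at percentile 95.3 of all tested probe sets. The call was lost without control replicate 1 (adjusted p = 0.0556 from limma), control replicate 2 (0.0618) or hCT1 replicate 1 (0.055), with log2 fold changes of 0.31 to 0.36 in those fits. In control samples the signal of the probe set lay at percentile 36.5, and since the table holds no detection calls, its distance from background is not known.

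Angpt1, the gene of the agonist of the same receptor (probe set 10903529), measured 4.69, 4.75 and 4.86 in control samples and 4.32, 4.82 and 4.70 in hCT1-treated samples. The groups overlapped, and hCT1 replicate 1, which had the highest Angpt2 value, had the lowest Angpt1 value. Its log2 change was -0.15 (SE 0.12, 95% interval -0.42 to 0.11, adjusted p = 0.409 from limma). Of the 10 genes Angpt1 had the largest spread within groups, at percentile 97.4 of all tested probe sets, and the dimmest signal, at percentile 30.3 in control samples. Without hCT1 replicate 1 its log2 fold change was -0.01.

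Both receptor genes of the system were measured at mid-range signal. Tek, which encodes the receptor that both angiopoietins bind (probe set 10869946), measured 6.79, 7.02 and 7.06 in control samples and 7.11, 7.21 and 7.06 in hCT1-treated samples. The lowest control sample stood apart from the other values, and hCT1 replicate 3 and control replicate 3 met at the border of the groups. For Tek the log2 change was 0.17 (SE 0.08, 95% interval -0.01 to 0.35, adjusted p = 0.197 from limma). Tie1 (probe set 10879278) measured 7.25, 7.41 and 7.25 in control samples and 7.50, 7.39 and 7.40 in hCT1-treated samples. Control replicate 2 lay within the range of the hCT1-treated samples. For Tie1 the log2 change was 0.13 (SE 0.07, 95% interval -0.02 to 0.28, adjusted p = 0.216 from limma). It passed only when each array was centred on its median, at 0.23 (adjusted p = 0.0411 from limma), a setting that moved the median of all tested probe sets to 0.09.

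These are cultures, and the arrays do not show which cells the signal of endothelial genes came from. Fewer cells of a type and less RNA per cell cannot be told apart in such samples. Of 14 endothelial marker genes, 12 were measured, among them Pecam1 at percentile 59.4 and Cdh5 at percentile 58.2 of signal in control samples. Counts of called markers, here and below, stand against 5.09% higher and 9.58% lower over all 14506 genes, each taken by its brightest probe set. Of the 12, 0 were higher and 1, the sialomucin gene Emcn, was lower by 0.47 on the log2 scale (adjusted p = 0.0216 from limma). It lost the call without control replicate 2 or 3 or without hCT1 replicate 1 or 2. With Emcn, 2 of the 12 had an unadjusted p under 0.05, the other being Cd34 (0.20, adjusted p = 0.0814 from limma), whose hCT1-treated samples all lay above the controls. Of the rest, Erg was at 0.17, Egfl7 at 0.12, Sox17 at -0.11, Plvap at -0.11, Pecam1 at -0.02 and Cdh5 at -0.03, and the median over the 12 was -0.02. The summed linear signal of the 12 probe sets was 2943 to 3158 in control samples and 2865 to 3081 in hCT1-treated samples. Without the brightest gene, Eng, the sums were 1491 to 1640 and 1501 to 1566. Angpt2 rose beside marker sums whose group ranges overlapped, and any part of endothelial cells in its rise was not tested. The cardiomyocyte markers were all bright, at percentiles 77.4 to 99.8, and 5 of 12 were lower (Tnni3, Myl2, Myh6, Mybpc3 and Ttn, by 0.22 to 0.62, Ttn losing its call in 4 of 6 fits that left out a sample), with a summed linear signal of 29620 to 29760 in control and 26770 to 28110 in hCT1-treated samples; their part in these results was not tested.

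**Figure D2:**
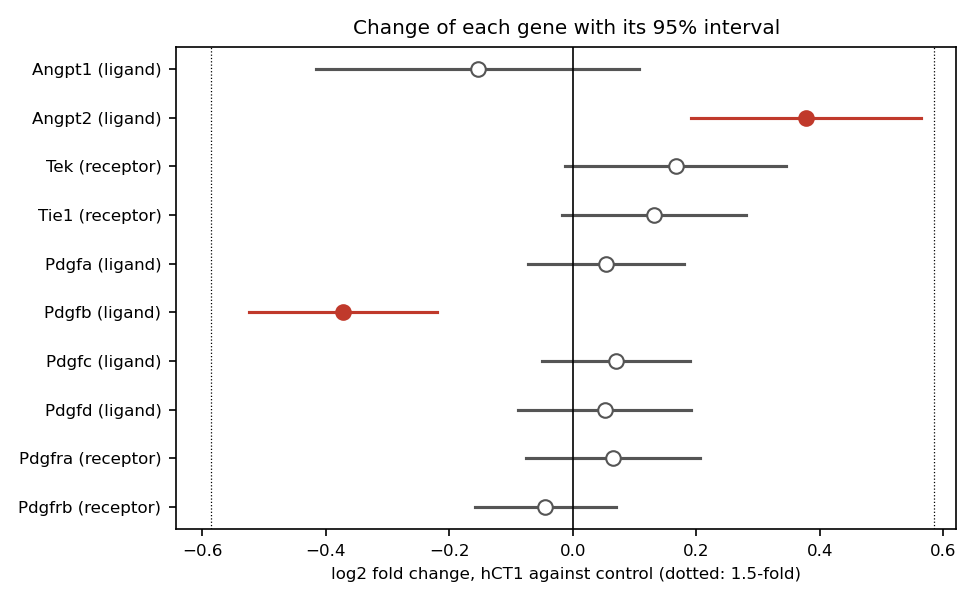
The log2 fold change of each gene, hCT1 against control (3 samples each), is shown with its 95% interval from limma; genes past the adjusted threshold of 0.05 are filled in red and the rest are open, and dotted lines mark 1.5-fold. All 10 intervals end inside the dotted lines, and those of Angpt2 and Pdgfb alone leave out 0.

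Pdgfb encodes the PDGF chain that can engage both receptors and that endothelium uses to recruit pericytes. Its probe set (10905521) measured 6.68, 6.81 and 6.64 in control samples and 6.28, 6.31 and 6.43 in hCT1-treated samples. Every hCT1-treated sample lay below every control sample. The means were 6.71 ± 0.09 and 6.34 ± 0.08 (SD, n = 3 each). On the log2 scale they differed by -0.37 (SE 0.07, 95% interval -0.52 to -0.22, adjusted p = 0.00733 from limma), or 1.29-fold lower. The call held in 6 of 6 fits that left out a sample (adjusted p = 0.0106 to 0.0309 from limma, log2 fold change -0.42 to -0.32), after centring (-0.28) and after another quantile normalization (-0.31).

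Pdgfa encodes the chain that in its own dimer binds the alpha receptor only, and cardiomyocytes are a known source of it. Its probe set (10757129) measured 9.30, 9.25 and 9.20 in control samples and 9.26, 9.32 and 9.33 in hCT1-treated samples, and the groups overlapped. Pdgfa changed by 0.05 on the log2 scale (SE 0.06, 95% interval -0.07 to 0.18, adjusted p = 0.562 from limma). The signal of this probe set was among the bright ones, at percentile 85.8.

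The promoters of Pdgfb and Pdgfa are shown because the fall of Pdgfb and the interval of Pdgfa around 0 set these paralogs apart. Each sequence runs from 250 bases before the start of the gene to 50 after it, and was taken from RefSeq tables of assembly GRCr8. That of Pdgfb lies at chr7:113438294-113438593 on the minus strand, and that of Pdgfa at chr12:20759116-20759415 on the plus strand. Capitals mark matches, on either strand, to the letters searched.
Pdgfb: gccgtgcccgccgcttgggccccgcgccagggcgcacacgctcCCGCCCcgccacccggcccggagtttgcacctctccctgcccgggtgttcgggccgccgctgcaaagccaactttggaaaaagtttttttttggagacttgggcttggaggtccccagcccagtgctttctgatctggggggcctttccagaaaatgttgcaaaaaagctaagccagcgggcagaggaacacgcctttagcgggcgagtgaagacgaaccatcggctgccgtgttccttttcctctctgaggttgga
Pdgfa: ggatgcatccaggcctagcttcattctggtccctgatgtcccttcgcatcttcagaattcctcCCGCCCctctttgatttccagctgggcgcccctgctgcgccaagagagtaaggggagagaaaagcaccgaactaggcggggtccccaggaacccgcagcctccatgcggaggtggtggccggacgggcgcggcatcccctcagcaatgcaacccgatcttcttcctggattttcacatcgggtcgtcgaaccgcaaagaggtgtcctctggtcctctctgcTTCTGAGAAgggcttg
The letters searched were TTCNNNGAA (the STAT motif, the class of factor that gp130 activates), GTAAACA (FOXO), GGGCGG (the GC box), GCGNGGGCG (EGR) and ACGTG (the hypoxia element). No motif match overlapped another. Both promoters held 1 GC box, read as its reverse complement, which 33.1% of 33469 promoters of this length hold. Pdgfa also held a STAT match, 35 bases into the gene, which 8.87% of promoters hold. The 300 bases of Pdgfb held none of the other 4 motifs. Sequences were found for 6 of the 10 genes; of the others, Tie1 held 1 GC box, Pdgfd held 1 GC box and 1 hypoxia element (in 19.3% of promoters), and Pdgfc and Pdgfra held none of the 5.

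Pdgfc and Pdgfd encode the chains that are secreted in a latent form and need their CUB domains cut off outside the cell. Pdgfc (probe set 10816026) measured 7.63, 7.67 and 7.71 in control samples and 7.73, 7.73 and 7.76 in hCT1-treated samples. The groups lay apart by 0.02 only. The log2 fold change was 0.07 (SE 0.05, 95% interval -0.05 to 0.19, adjusted p = 0.418 from limma). Pdgfd (probe set 10907845) measured 7.02, 7.19 and 7.10 in control samples and 7.13, 7.12 and 7.21 in hCT1-treated samples, which overlapped, with a log2 fold change of 0.05 (SE 0.06, 95% interval -0.09 to 0.19, adjusted p = 0.618 from limma).

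The receptor genes of the PDGF system changed little. Pdgfra, the alpha receptor gene (probe set 10776459), measured 6.55, 6.52 and 6.55 in control samples and 6.58, 6.53 and 6.71 in hCT1-treated samples. The groups overlapped, and hCT1 replicate 3 was the highest. The log2 fold change was 0.07 (SE 0.06, 95% interval -0.08 to 0.21, adjusted p = 0.524 from limma). Pdgfrb, the beta receptor gene (probe set 10802040), was the brightest probe set of the 10, at percentile 91.1, and the most even. It measured 9.81, 9.81 and 9.83 in control samples and 9.77, 9.77 and 9.79 in hCT1-treated samples, so that every hCT1-treated sample lay below every control sample. The difference was -0.04 on the log2 scale (SE 0.05, 95% interval -0.16 to 0.07, adjusted p = 0.603 from limma). Its spread within groups was at percentile 0.216 of all tested probe sets, which limma draws toward that of the others. After centring on the median its log2 fold change was 0.05, the opposite sign.

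Over the 8 genes that did not pass, the 95% intervals reached at most 1.27-fold higher (Tek) and 1.33-fold lower (Angpt1). Changes of 1.5-fold in the array values thus lay outside all of them. For Angpt1, the dimmest of the 10, the distance of these values from background is not known. Counted by overlap, the groups lay fully apart in 4 of the 10 genes, 2 higher (Angpt2 and Pdgfc) and 2 lower (Pdgfb and Pdgfrb), against 13.9% and 20.5% of all tested probe sets, or 34.3% in either direction. Their median residual SD was 0.07, against 0.08 over all tested probe sets.

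Marker genes of cells that carry or surround these PDGF receptors gave the following values. Which cells in the cultures their signal came from was not tested. Of 8 pericyte markers, 0 passed the test in either direction (median log2 fold change 0.05), with 1 at an unadjusted p under 0.05. Kcnj8 (0.24, adjusted p = 0.137 from limma) and Vtn (0.10) had the largest values, and among the others Rgs5 was at 0.02, Cspg4 at -0.01 and Mcam at 0.08. The summed linear signal of the 8 was 2196 to 2249 in control and 2269 to 2347 in hCT1-treated samples, ranges that did not overlap. Without Mcam, the brightest, the ranges overlapped, at 988.7 to 1124 and 1033 to 1112.

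Of 10 fibroblast markers, 0 passed (median -0.06), with 3 at an unadjusted p under 0.05. Dcn (0.18) and Col3a1 (-0.17), which encode the proteoglycan decorin and a collagen chain, had the largest values and lay in opposite directions. The sum was 10170 to 10690 in control and 9649 to 9919 in hCT1-treated samples, ranges that did not overlap, also without the brightest gene, Col1a1. Of 7 smooth muscle genes, 4 were lower, against 9.58% of all genes. Myh11 was lower by 0.39, Smtn by 0.36, Myocd by 0.30 and Tagln by 0.30 on the log2 scale. Smtn lost its call without the first or second control or the second hCT1 sample. The other 3 did not pass: Cnn1 was at 0.11, Acta2 at 0.01 and Lmod1 at -0.01, and after centring on the median 1 gene of the list was called higher. The smooth muscle sum was 10320 to 10580 in control and 9651 to 9817 in hCT1-treated samples. Pdgfb fell beside lower smooth muscle, fibroblast and cardiomyocyte sums, and an endothelial sum whose group ranges overlapped. The pericyte sum lay higher only with Mcam, its brightest gene, included. Whether any of these cells had a part in the fall of Pdgfb was not tested. The sums use the values as deposited. They were not taken after centring on the median, which moved the median of all tested probe sets to 0.09. Whether the lower sums followed a shift shared by the brighter probe sets was not tested.

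Of 10 macrophage markers, 1 was lower (the lysozyme gene Lyz2, -0.52) and 0 were higher, with a median of -0.01. A lower call was given to 9.58% of all genes. Uncalled markers lay in both directions: Mrc1 at 0.20 and Cd163 at 0.18, and Cd14 at -0.18, Cd68 at -0.17 and Csf1r at -0.17. The sum of the 10 was 630.0 to 670.0 in control and 524.5 to 598.1 in hCT1-treated samples. Without Lyz2 the ranges overlapped, at 385.4 to 413.8 and 357.8 to 405.2. Of 4 platelet and megakaryocyte markers, 0 passed, and 0 had an unadjusted p under 0.05. Gp9 (0.22) and Pf4 (-0.10) had the largest values, and the sum was 81.8 to 92.6 against 81.5 to 94.8. The part of these cells in the results was not tested.

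Within each role, the change of a gene was set against that of its partner on the same array. Relative to the control mean, the log2 difference Angpt2 minus Angpt1 was 0.95, 0.26 and 0.38 in the 3 hCT1-treated samples, all above the control samples, which lay between -0.09 and 0.05. The mean change was 0.53 (SE 0.22), and 0.32 without hCT1 replicate 1. Pdgfb minus Pdgfa was -0.44, -0.47 and -0.37 in hCT1-treated samples, all below the control samples at -0.08 to 0.10, a mean change of -0.43 (SE 0.06). Pdgfra minus Pdgfrb changed by 0.11 (SE 0.05), with the groups apart, and by 0.06 without hCT1 replicate 3. Tek minus Tie1 (0.03, SE 0.10) and Pdgfd minus Pdgfc (-0.02, SE 0.05) overlapped, and both changed sign when some samples were left out (-0.02 to 0.11 and -0.04 to 0.02). In a 2-sided exact permutation test of 3 samples against 3 the smallest p is 0.1, which 3 of the 5 differences reached (adjusted p = 0.167 over the 5), so none could pass a threshold of 0.05; the p was 0.7 for Tek minus Tie1 and 1 for Pdgfd minus Pdgfc.

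**Figure D3:**
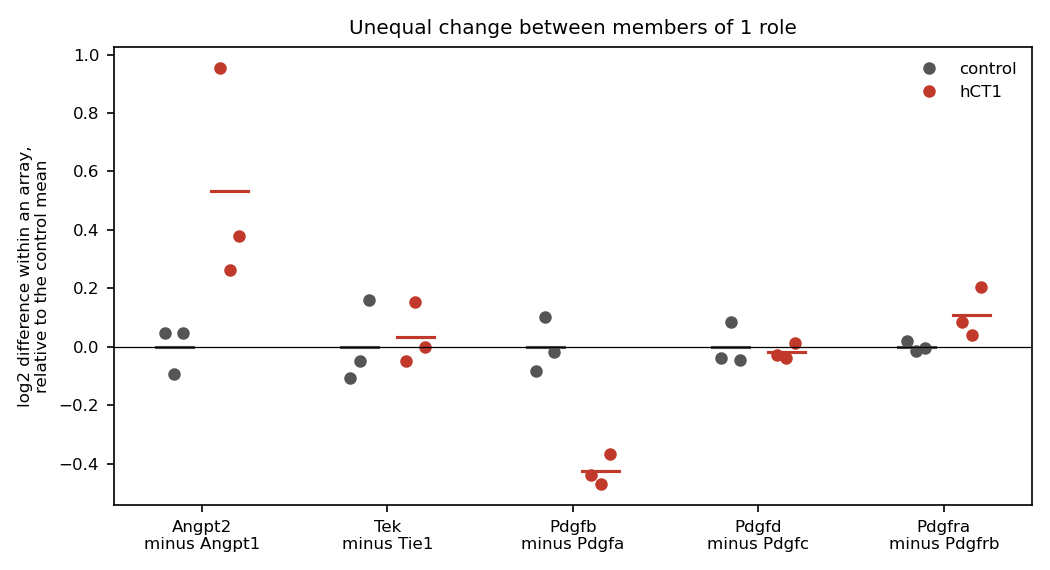
For each pair of genes of 1 role, points give the log2 difference between the 2 genes on each array, less its mean over the control samples; control samples are grey, hCT1-treated samples red, and short lines are group means. The groups lie apart for Angpt2 minus Angpt1 (mean 0.53), Pdgfb minus Pdgfa (-0.43) and Pdgfra minus Pdgfrb (0.11), and overlap for the other pairs.

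Genes of the pathways around these ligands and receptors were counted next. Over 69 measured genes (of 75 listed) for binding, processing, receptor signaling, response and transcription, 10 passed the test (14.5%), 6 of them higher and 4 lower, and 59 failed it. Over all 14506 genes taken by their brightest probe set, 5.09% were higher and 9.58% lower, or 14.7% in either direction. The 69 genes had a median log2 fold change of 0.03, against 0.00 over all tested probe sets. Higher genes numbered 3 when the second sample of either group was left out. Lower genes numbered 1 after removal of the first or second control or of the first hCT1 sample, 0 after removal of the second hCT1 sample and 2 after removal of the third. With the replicate block 1 gene was lower, and after centring on the median 0 were lower and 17 higher.

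In the network around the angiopoietins, TEK and TIE1, 2 of 15 measured genes were higher and 1 was lower (median 0.07). Pik3r1, the p85-alpha subunit of the PI 3-kinase that both TEK and the PDGF receptors recruit, measured 8.88, 8.94 and 8.95 in control samples and 9.50, 9.67 and 9.53 in hCT1-treated samples. It rose 1.56-fold, or 0.64 on the log2 scale (adjusted p = 0.000276 from limma, SE 0.06), and passed in 6 of 6 fits that left out a sample. The adaptor gene Nck1 rose by 0.25 and the adaptor gene Grb14 was lower by 0.26, a call that was lost when any 1 sample was left out. The third ligand gene, Angpt4, was at 0.07 (adjusted p = 0.579 from limma), Nos3, the endothelial nitric oxide synthase, at 0.18 and Akt1 at -0.16, which did not pass.

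Among 12 proteases and binding proteins of the PDGF ligands, 1 was higher and 0 were lower (median 0.03). Pcsk6, a proprotein convertase of the class that cuts the PDGF-A and PDGF-B precursors, measured 8.42, 8.32 and 8.37 in control samples and 9.11, 9.01 and 9.09 in hCT1-treated samples. It rose 1.63-fold or 0.70 on the log2 scale (adjusted p = 9.38e-05 from limma, SE 0.06), and passed in 6 of 6 fits that left out a sample. Its relatives Furin (0.07), Pcsk5 (0.13) and Pcsk7 (-0.14) did not pass, nor did the plasminogen activator genes Plat (-0.06) and Plau (0.08), whose products activate PDGF-C and PDGF-D.

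Of 24 measured genes of PDGF receptor signaling, 4 were higher and 2 were lower (median 0.01); Pik3r1 and Nck1 are in this list too. The others were the Ras exchange factor gene Sos1 (0.23) and the phosphatase gene Ptpn2 (0.28), both higher, and Pik3r2, the p85-beta subunit (-0.26), and the kinase gene Src (-0.27), both lower. Pik3r1 and Pik3r2, the genes of 2 regulatory subunits of the same kinase, thus changed in opposite directions. Apart from Pik3r1, each of these calls was lost without at least 1 sample: Nck1 without control replicate 2 or hCT1 replicate 2 or 3, Sos1 without control replicate 1 or hCT1 replicate 2 or 3, and Pik3r2 without control replicate 2 or hCT1 replicate 2 or 3. Ptpn2 lost it when the first or second sample of either group was removed, and Src kept it only without control replicate 3.

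Of 15 measured immediate early genes, which PDGF induces in fibroblasts, 1 was higher and 1 lower at 24 h. Earlier times, when such genes respond first, were not sampled. Junb rose by 0.29 (adjusted p = 0.0133 from limma), a call lost without control replicate 2 or hCT1 replicate 1. Ier2 was lower by 0.26 (adjusted p = 0.0230 from limma), a call lost without control replicate 1 or any hCT1 replicate. Of 12 measured transcription factors reported to act on Angpt2 or Pdgfb, 0 passed in either direction (median -0.08), with 3 at an unadjusted p under 0.05. Values were -0.27 for Klf2 and -0.18 for Ets1, the largest of the 12, and 0.06 for Foxo1, a known activator of Angpt2 in endothelium.

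**Figure D4:**
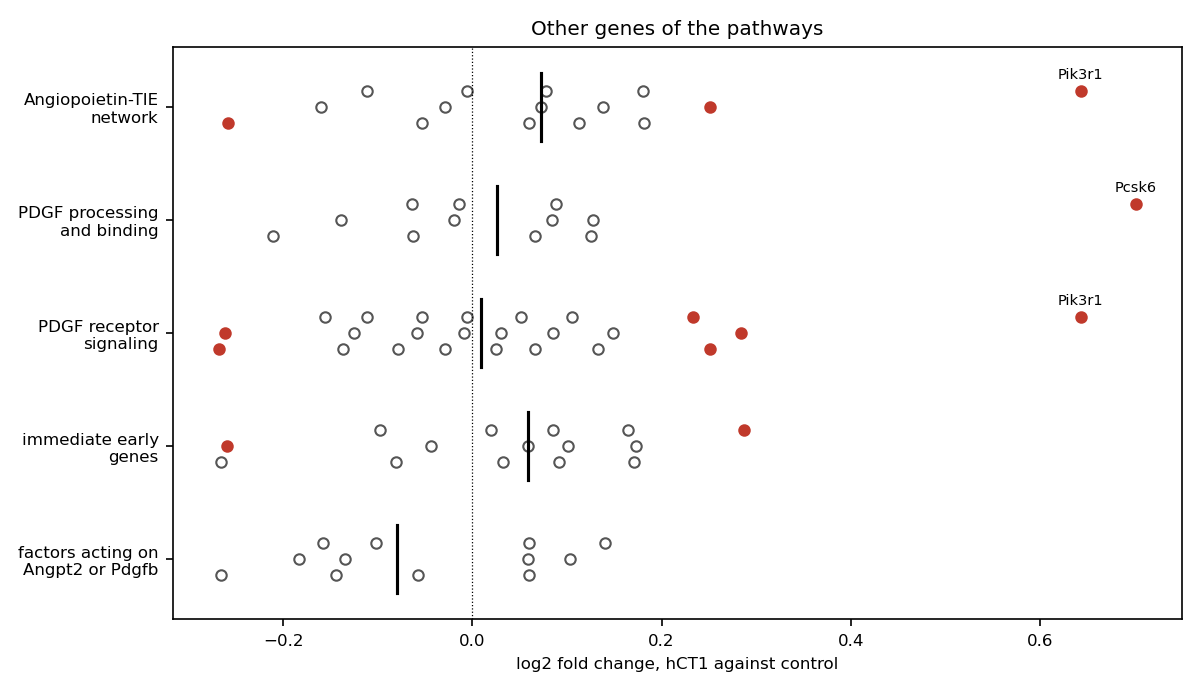
Genes are points placed by log2 fold change between hCT1 and control (n = 3 in both), in rows by list; those past the adjusted threshold of 0.05 are filled in red and the rest are open, and vertical black lines are list medians. The medians lie between -0.08 and 0.07, while Pcsk6 (0.70) and Pik3r1 (0.64, in both of its lists) lie far to the right.

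Genes whose values over the 6 samples followed those of Angpt2 and Pdgfb most closely were sought among 14505 others, each centred on its own mean. The distance is the root mean square of the 6 differences, and given as a description, since both groups enter it. For Angpt2 these were Poglut1, an O-glucosyltransferase of Notch receptors (distance 0.04, log2 fold change 0.36), the stress granule gene G3bp2 (0.04, change 0.39) and the muscle cell fusion gene Mymk (0.04, change 0.32). For Pdgfb they were the Nudix hydrolase gene Nudt3 (0.03, change -0.37), the quinone reductase gene Nqo2 (0.03, change -0.35) and the polysialyltransferase gene St8sia4 (0.03, change -0.38).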

How the data were processed

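Expression in 3 hCT1-treated and 3 control samples was read on Affymetrix whole-transcript rat arrays. Values were deposited by the authors on the log2 scale after RMA in Affymetrix Expression Console (versions not given in the sources used here), which corrects background, normalizes quantiles between arrays and summarises each probe set; they were used as deposited. No detection calls or genome build come with them. Pearson's r over 29215 probe sets was 0.997 to 0.998 within groups and 0.994 to 0.996 between them, and the number of arrays limits the precision.

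Symbols came from the platform annotation, updated through Entrez identifiers to RefSeq GRCr8 (15279 of 15310 matched); 323 probe sets had several symbols and 13582 none. hCT1 was compared with control by limma 3.58.1 in R 4.3.3 (lmFit, eBayes, 2-sided), adjusted by Benjamini-Hochberg over the 15310 probe sets, at 0.05. The methods' one-way ANOVA, trend and robust eBayes (statmod 1.5.0), array weights, scalings, filters, left-out samples and a replicate block were alternatives.

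The genes and lists were chosen with earlier results of these data known. Named are the genes of both families, the 4 largest called changes per list (2 largest values where none passed) and the 3 nearest patterns; other listed genes were named after their values were seen. Summed signals add the unlogged values of the brightest probe set per gene. Sums without the brightest gene of a list were added after the values were seen. The fit was tested on simulated data.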

Additional observations from a re-analysis of the deposited data

How the results depend on the processing

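Angpt2 stayed higher in direction in all alternatives that gave a value, with log2 fold changes of 0.31 to 0.47, but at 0.38 it lost the call by the adjusted one-way ANOVA (adjusted p = 0.116), at an adjusted p under 0.01 and with a required change of 1.5-fold. It fell out with the filter on dim probe sets (under the 40th percentile of mean signal), as did Angpt1. Leaving out a sample gave 0.31 to 0.45. Pdgfb stayed lower in all alternatives, from -0.42 to -0.28, and at -0.37 lost the call only by the adjusted one-way ANOVA (adjusted p = 0.0615) and at 1.5-fold. The count of higher genes among the 10 was 0 under that ANOVA, the dim filter, both stricter thresholds and 3 of 6 left-out samples (range 0 to 1), and 2 after centring on the median; that of lower genes was 0 under the adjusted ANOVA and 1.5-fold, 2 by the unadjusted ANOVA, where Pdgfrb joined, and 1 whichever sample was left out. Pdgfrb reversed to 0.051 after centring on the median.

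Of the other pathway genes, the count higher was 14 by the unadjusted ANOVA, 10 with the dim filter or another quantile normalization, 17 after centring, 2 at each stricter threshold and 3 to 7 with a sample left out. The count lower was 7 with trend and robust or with array weights, 0 by the adjusted and 8 by the unadjusted ANOVA, 8 with the dim filter, 1 over all probe sets, after another quantile normalization or with the replicate block, 0 after centring or at either stricter threshold, and 0 to 4 with a sample left out. The cause of these shifts was not tested. No sign was seen that samples of the same number are paired. Correlations of same-numbered deviations were -0.03, 0.05 and -0.28, and the highest between other numbers was 0.21. With 3 samples per group these values cannot exclude a pairing. The replicate block changed no call of the 10 genes (adjusted p = 0.0305 for Angpt2 and 0.0222 for Pdgfb). Leaving out a sample turned the sign of Tek minus Tie1 and of Pdgfd minus Pdgfc, and of none of the other 3 differences.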

Other observations

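The PDGF receptors belong to the class III receptor kinases, whose other members and ligands were measured in 6 of 7 cases. Kit, the stem cell factor receptor gene, measured 6.22, 6.20 and 6.10 in control samples and 6.79, 6.65 and 6.70 in hCT1-treated samples. Every hCT1-treated sample lay above every control sample. It rose 1.45-fold or 0.54 on the log2 scale (adjusted p = 0.000732 from limma, SE 0.06), and passed in 6 of 6 fits that left out a sample. The other 5 did not pass: values were 0.07 for its ligand gene Kitlg, -0.17 for the macrophage receptor gene Csf1r, 0.08 for Csf1, 0.10 for Il34 and 0.03 for Flt3.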
